A study of Mus musculus with 4 samples.

Results

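Sox9, Onecut1, Onecut2, Foxq1, Spdef, Klf5 and Runx1 are 7 transcription factors that mark ductal, mucous or metaplastic epithelium. They were chosen by name, with earlier results of these data known, as 7 of the 32288 features of a deposited single-cell RNA count matrix. All 7 were found in it. The matrix holds pancreas cells of 4 mice on a background backcrossed into CD-1, with the genotype Ptf1aCre-ERTM;ROSAYFP/+. In these mice a tamoxifen-dependent Cre under Ptf1a, an acinar gene in the adult pancreas, switches on the fluorescent protein EYFP, so that cells descended from acinar cells stay marked. All 4 mice received tamoxifen by gavage and then repeated caerulein, a secretagogue that injures the pancreas, from an age of 10 weeks. Caerulein was given for 2 weeks in 2 mice and for 4 weeks in the other 2, and EYFP-positive cells were sorted and profiled. Every group carried the same alleles and both treatments, and no uninjured mouse was analysed here. The study followed what injured acinar cells become.

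The authors gave 13362 of 21140 cells an epithelial type, and their type names are used throughout. Acinar and Acinar.Prolif are enzyme-secreting cells, the latter dividing, MucinDuctal cells carry mucins and duct genes, and Acinar/MucinDuctal lies between Acinar and MucinDuctal. Ductal-like, Tuft (chemosensory), EEC (enteroendocrine, hormone-making) and Tuft/EEC.Progenitor make up the rest. Typed cells numbered 2984 and 3590 at 2 weeks and 2814 and 3974 at 4 weeks, with median depths of 13464 to 20807 unique molecular identifiers (UMIs, 1 for each captured RNA molecule) per cell. Levels are in CPM, the UMIs of a gene per 1000000 of all UMIs summed over the cells of 1 type in 1 mouse, and n counts mice. Values for single mice are given in the order mouse 1, mouse 2 at each time. The typed cells of the 4 mice held 23 barcodes that occurred in more than 1 mouse. The marker lists went with the type names: the 6 acinar markers summed to 39872 to 55547 CPM in Acinar cells and 360 to 1032 CPM in MucinDuctal cells, and the 8 mucin and duct markers to 2317 to 3527 and 34520 to 125512 CPM. Muc5ac, a gastric surface mucin among those 8, did not follow the list. It was nearly absent from MucinDuctal cells of every mouse, at 0 to 0.474 CPM in the 2 author clusters of that type. The 6 ductal markers were detected in the Ductal-like cells of every mouse and summed to 16037 to 23339 CPM there. Spp1, which is among these 6, alone had 8485 to 17180 CPM in author cluster 1 of the MucinDuctal type. A high sum of this list is therefore not particular to Ductal-like cells.

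Acinar cells of the adult pancreas can lose their enzyme programme after injury and take on duct-like and mucous features, a change known as acinar-to-ductal metaplasia. SOX9 is an HMG-box factor of pancreatic progenitors and adult ducts, and ONECUT1 and ONECUT2 are cut-homeodomain factors, of which ONECUT1 is required for normal duct development. SPDEF, an ETS factor, and FOXQ1, a forkhead factor, are known for mucous differentiation in the gut and stomach. KLF5 is a zinc-finger factor of proliferative gut epithelium, and RUNX1 is a Runt-domain factor best known from blood formation, where it binds DNA with its partner CBFB. The genes lie on 7 different chromosomes of mouse build GRCm38 (mm10): Sox9 on 11 (112782224 to 112787760), Onecut1 on 9 (74861921 to 74891781), Onecut2 on 18 (64340020 to 64400987) and Foxq1 on 13 (31556134 to 31560976). Spdef lies on 17 (27714352 to 27728955), Klf5 on 14 (99298691 to 99315036) and Runx1 on 16 (92601466 to 92826149). In GENCODE vM21, Onecut1 shares its strand with 1 overlapping gene, Gm20649, so reads there could be split, and the other 6 overlap no gene on their strand.

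Among the 7, 6 factors were already higher in Acinar/MucinDuctal cells than in Acinar cells of the same mouse. Sox9, Onecut2, Foxq1, Spdef, Klf5 and Runx1 were at least 2-fold higher there in each of the 4 mice, and Onecut1 was not. Of the 15423 genes with at least 1 CPM in a type, 33.1% met the same rule, and in Acinar cells 27 digestive enzyme genes held 49.6% to 58.8% of all UMIs, which lowers the CPM of every other gene there. With those enzymes left out of the total, 5 of 7 factors met the rule against 11.2% of genes, and Spdef dropped out. Leukocyte genes met the same rule in 10 of 12 cases (2 of 12 with enzymes left out), with a median log2 ratio of 2.96, against 3.16 for the 7 factors. With enzymes left out these medians were 2.23 and 2.42, against 0.70 for all genes. Among 10 immediate early and dissociation genes 5 met the rule (3 with enzymes left out). Without the cells that held 2 or more leukocyte UMIs 6 of 7 factors met it, but a cut at a fixed count is looser in shallow cells. The part of leukocyte RNA and that of the immediate early genes were not tested. The types were made by the authors from these same counts, so the levels between types are descriptions and were not tested.

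**Figure D1:**
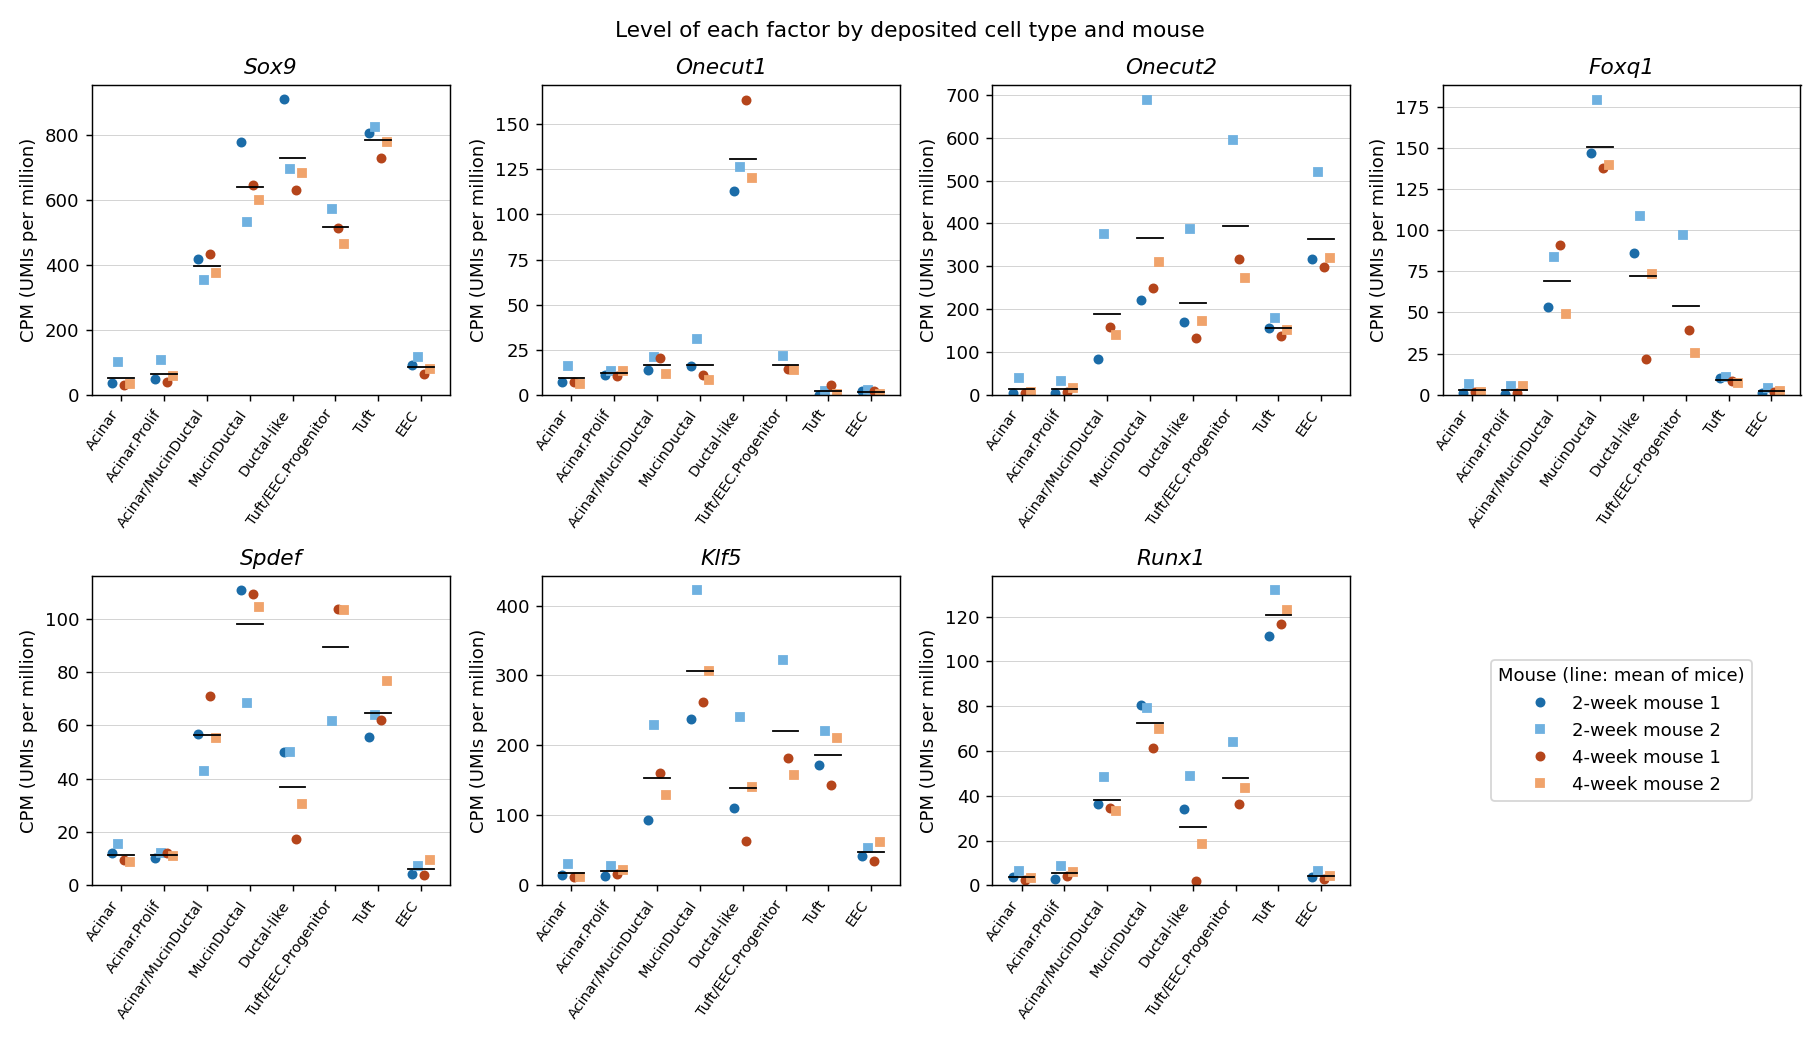
CPM of each factor (y axis, from 0, a different range in each panel) in the 8 deposited cell types (x axis), with 1 point for each mouse holding at least 20 cells of the type and a line at the mean of the mice. Sox9, Onecut2, Foxq1, Spdef, Klf5 and Runx1 are low in both Acinar types and higher in Acinar/MucinDuctal and MucinDuctal cells, while Onecut1 is highest in Ductal-like cells.

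Sox9 had 36.9 and 101 CPM at 2 weeks and 31.0 and 32.8 CPM at 4 weeks in Acinar cells. In Acinar/MucinDuctal cells it had 418 and 354 CPM at 2 weeks and 434 and 375 CPM at 4 weeks, and in MucinDuctal cells 779.6 and 531 CPM at 2 weeks and 647 and 599 CPM at 4 weeks. The mice of the 3 types did not overlap. The log2 ratio of Acinar/MucinDuctal over Acinar was 3.16 ± 0.91 (SD, n = 4), an 8.93-fold difference, and that of MucinDuctal over Acinar was 3.84 ± 0.97. Depth differed between these types, so shares of cells with a Sox9 UMI were also computed after thinning each cell to 1500 UMIs, without the 32 Acinar, 277 Acinar/MucinDuctal and 4 MucinDuctal cells below that depth. The thinned share was 8.51% ± 4.46 (SD, n = 4) in Acinar, 41.6% ± 3.21 in Acinar/MucinDuctal and 55.3% ± 5.30 in MucinDuctal cells, against unthinned shares of 60.4% ± 9.99, 70.7% ± 10.6 and 96.3% ± 1.22.

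Onecut2 had 4.99 and 38.2 CPM at 2 weeks and 3.87 and 5.92 CPM at 4 weeks in Acinar cells and 83.6 and 375 CPM at 2 weeks and 158 and 139 CPM at 4 weeks in Acinar/MucinDuctal cells. In MucinDuctal cells it had 221 and 689 CPM at 2 weeks and 249 and 309 CPM at 4 weeks. In each type the level of 2-week mouse 2 stood above the others, and Onecut2 was highest in that mouse in 7 of 7 types with 4 mice. Among all genes 1.84% were highest there in all 7. Klf5 and Runx1 were highest in that mouse in 6 of the 7 types, Foxq1 in 5, Sox9 and Onecut1 in 4 and Spdef in 1. The log2 ratio over Acinar cells was 4.31 ± 0.86 in Acinar/MucinDuctal and 5.34 ± 0.81 in MucinDuctal cells (SD, n = 4), and the thinned share went from 1.94% ± 2.26 in Acinar to 21.2% ± 11.9 and 36.7% ± 14.2. The 10 immediate early and dissociation genes (such as Fos and Atf3) were also highest in 2-week mouse 2 in these 3 types, at 1307, 2411 and 3713 CPM, against 207 to 468, 1278 to 1342 and 1631 to 2394 CPM in the other mice; their part in the Onecut2 levels was not tested.

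Foxq1 had 1.22 and 6.34 CPM at 2 weeks and 1.61 and 1.51 CPM at 4 weeks in Acinar cells, 53.4 and 83.6 CPM at 2 weeks and 90.8 and 49.3 CPM at 4 weeks in Acinar/MucinDuctal cells and 147 and 179 CPM at 2 weeks and 138 and 139.7 CPM at 4 weeks in MucinDuctal cells. Its ratios were 5.00 ± 0.91 for Acinar/MucinDuctal and 6.16 ± 0.92 for MucinDuctal cells over Acinar cells (log2, SD, n = 4), but its Acinar level was near or below that of immune and endothelial cells without a deposited type in every mouse, so their exact size is uncertain. Its thinned share was 0.478% ± 0.356 in Acinar, 9.01% ± 2.30 in Acinar/MucinDuctal and 19.2% ± 1.79 in MucinDuctal cells. Klf5 had 15.4 and 31.1 CPM at 2 weeks and 11.8 and 12.6 CPM at 4 weeks in Acinar cells, 93.3 and 229 CPM at 2 weeks and 160.3 and 129.8 CPM at 4 weeks in Acinar/MucinDuctal cells and 238 and 422 CPM at 2 weeks and 262 and 306 CPM at 4 weeks in MucinDuctal cells. As for Foxq1, the ranges of the 3 types did not overlap. The Klf5 log2 ratios over Acinar cells were 3.15 ± 0.52 and 4.20 ± 0.41, and its thinned shares were 2.81% ± 1.48, 18.7% ± 6.52 and 36.1% ± 6.93 in the same order of types.

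Spdef and Runx1 showed the same order of types. Spdef had 12.0 and 15.4 CPM at 2 weeks and 9.34 and 8.75 CPM at 4 weeks in Acinar cells, 56.8 and 42.9 CPM at 2 weeks and 71.1 and 55.4 CPM at 4 weeks in Acinar/MucinDuctal cells and 111 and 68.2 CPM at 2 weeks and 109 and 104 CPM at 4 weeks in MucinDuctal cells. The last 2 ranges overlapped between mice, and 2-week mouse 2 was lowest in MucinDuctal cells. Spdef's log2 ratios over Acinar cells were 2.33 ± 0.64 and 3.12 ± 0.67, the smallest of the 6 factors. Its unthinned share of positive cells was 27.9% ± 3.04 in Acinar and 30.3% ± 10.7 in Acinar/MucinDuctal cells, and after thinning 1.97% ± 0.440 and 7.30% ± 1.05.

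The 250 bases before the RefSeq start of Spdef (RefSeq, GRCm38.p6, chr17:27728952-27729201, minus strand) are shown for the mucous factor with the smallest ratios; capitals mark a match to TGTGGT or TGCGGT, the RUNX motif letters searched.
Spdef promoter: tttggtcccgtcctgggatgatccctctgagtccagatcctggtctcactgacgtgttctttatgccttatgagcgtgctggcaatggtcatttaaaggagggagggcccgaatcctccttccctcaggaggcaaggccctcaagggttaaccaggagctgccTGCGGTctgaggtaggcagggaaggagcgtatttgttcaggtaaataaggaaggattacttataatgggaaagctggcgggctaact
It held 1 RUNX match and none to the letters searched for ONECUT, FOX, SOX, KLF or SPDEF factors on either strand. Among the 32851 promoters of this table, 18.6% held at least 1 RUNX match. The match describes the sequence only, and binding was not tested.

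Runx1 had 3.63 and 6.40 CPM at 2 weeks and 2.53 and 3.17 CPM at 4 weeks in Acinar cells, 36.5 and 48.2 CPM at 2 weeks and 34.6 and 33.1 CPM at 4 weeks in Acinar/MucinDuctal cells and 80.4 and 79.4 CPM at 2 weeks and 61.3 and 69.7 CPM at 4 weeks in MucinDuctal cells, with no overlap between the types. Its log2 ratios over Acinar cells were 3.35 ± 0.35 and 4.28 ± 0.44 (SD, n = 4), the former with the smallest spread between mice of the 7 factors. Runx1 is also a leukocyte gene, and among cells without a deposited type it had 87.5 to 112 CPM in 1184 macrophage-like cells. Summed leukocyte genes (Ptprc, Lyz2 and 10 others) had 90.5 and 97.7 CPM at 2 weeks and 349 and 360 CPM at 4 weeks in Acinar/MucinDuctal cells, against 16.3 to 37.4 CPM in Acinar cells. Without the cells that held 2 or more leukocyte UMIs, the Runx1 ratio of Acinar/MucinDuctal over Acinar was 3.32 ± 0.47, against 3.35 ± 0.35 with them. Cells below that cut still held leukocyte RNA, and its part in this ratio was not tested. The 2 Runx1 promoters in the table are those of its distal and proximal starts, and the first is shown (RefSeq, GRCm38.p6, chr16:92826075-92826324, minus strand), with its match to TGTTTAC or TGTTTGC, the FOX letters searched, in capitals.
Runx1 promoter 1: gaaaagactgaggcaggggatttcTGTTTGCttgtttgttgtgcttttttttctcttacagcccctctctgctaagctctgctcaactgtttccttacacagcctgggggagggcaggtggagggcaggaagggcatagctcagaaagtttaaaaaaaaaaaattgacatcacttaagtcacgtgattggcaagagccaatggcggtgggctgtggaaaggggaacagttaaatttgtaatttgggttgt
This promoter held 1 FOX match, which 7.29% of all promoters held, and none of the other letters searched. The second Runx1 promoter held no match to any of them.

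Onecut1 did not follow the other 6. It had 7.20 and 15.9 CPM at 2 weeks and 6.97 and 5.83 CPM at 4 weeks in Acinar cells, 13.7 and 20.9 CPM at 2 weeks and 20.1 and 11.4 CPM at 4 weeks in Acinar/MucinDuctal cells and 16.1 and 30.9 CPM at 2 weeks and 10.9 and 8.06 CPM at 4 weeks in MucinDuctal cells, and the ranges of the 3 types overlapped. Its log2 ratios over Acinar cells were 0.96 ± 0.47 and 0.81 ± 0.31 in CPM, below the medians of all genes, 1.43 and 1.57. With enzymes left out of the total they were 0.23 ± 0.34 and -0.31 ± 0.44, so no direction is given for Onecut1. Without thinning, Onecut1 was found in 20.9% ± 4.90 of Acinar and 13.6% ± 12.2 of Acinar/MucinDuctal cells, against thinned shares of 1.70% ± 0.743 and 2.15% ± 0.783.

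In Ductal-like cells Onecut1 had 113 and 126 CPM at 2 weeks and 164 and 120.2 CPM at 4 weeks, above every mouse of every other type. It was the only factor at least 2-fold higher in Ductal-like than in MucinDuctal cells in 4 of 4 mice, with a log2 ratio of 3.17 ± 0.92 (SD, n = 4). That makes 1 of 7 factors, where 14.2% of all genes met the rule. Ductal-like cells were few, with 38 and 56 cells at 2 weeks and 23 and 22 at 4 weeks. Sox9, Onecut2 and Klf5 had higher mean levels in this type (730, 215 and 139 CPM, against 131 for Onecut1). Onecut1 is shown as the factor whose own highest level was in this type. The 250 bases before its start (RefSeq, GRCm38.p6, chr9:74861671-74861920, plus strand) follow, with matches to GGGCGG or GGGTGG, the KLF letters searched, in capitals.
Onecut1 promoter: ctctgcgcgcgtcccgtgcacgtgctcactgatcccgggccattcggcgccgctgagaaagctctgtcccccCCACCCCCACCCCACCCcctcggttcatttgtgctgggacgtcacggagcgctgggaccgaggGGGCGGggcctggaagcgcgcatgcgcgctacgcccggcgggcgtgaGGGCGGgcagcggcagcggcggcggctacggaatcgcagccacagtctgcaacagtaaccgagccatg
The promoter held 5 KLF matches, counting overlapping ones separately, and no other match, and 48.8% of all promoters held at least 1.

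The ratios depend on how levels are scaled, and the median gene was itself higher outside Acinar cells. The median log2 ratio over all genes was 1.43 for Acinar/MucinDuctal and 1.57 for MucinDuctal over Acinar cells. Leaving enzymes out of the total moved these medians to 0.70 and 0.45, and TMM factors moved them to 0.15 and 0.02. Above the median of all genes, the 6 factors stood 0.90 (Spdef) to 3.56 (Foxq1) log2 units higher in Acinar/MucinDuctal cells and 1.55 to 4.59 higher in MucinDuctal cells, and Onecut1 stood at -0.47 and -0.76. With TMM factors 4 of 7 factors stayed at least 2-fold higher in Acinar/MucinDuctal cells in every mouse, Sox9 and Spdef dropping out, and 5 of 7 in MucinDuctal cells, where only Spdef dropped out.

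**Figure D2:**
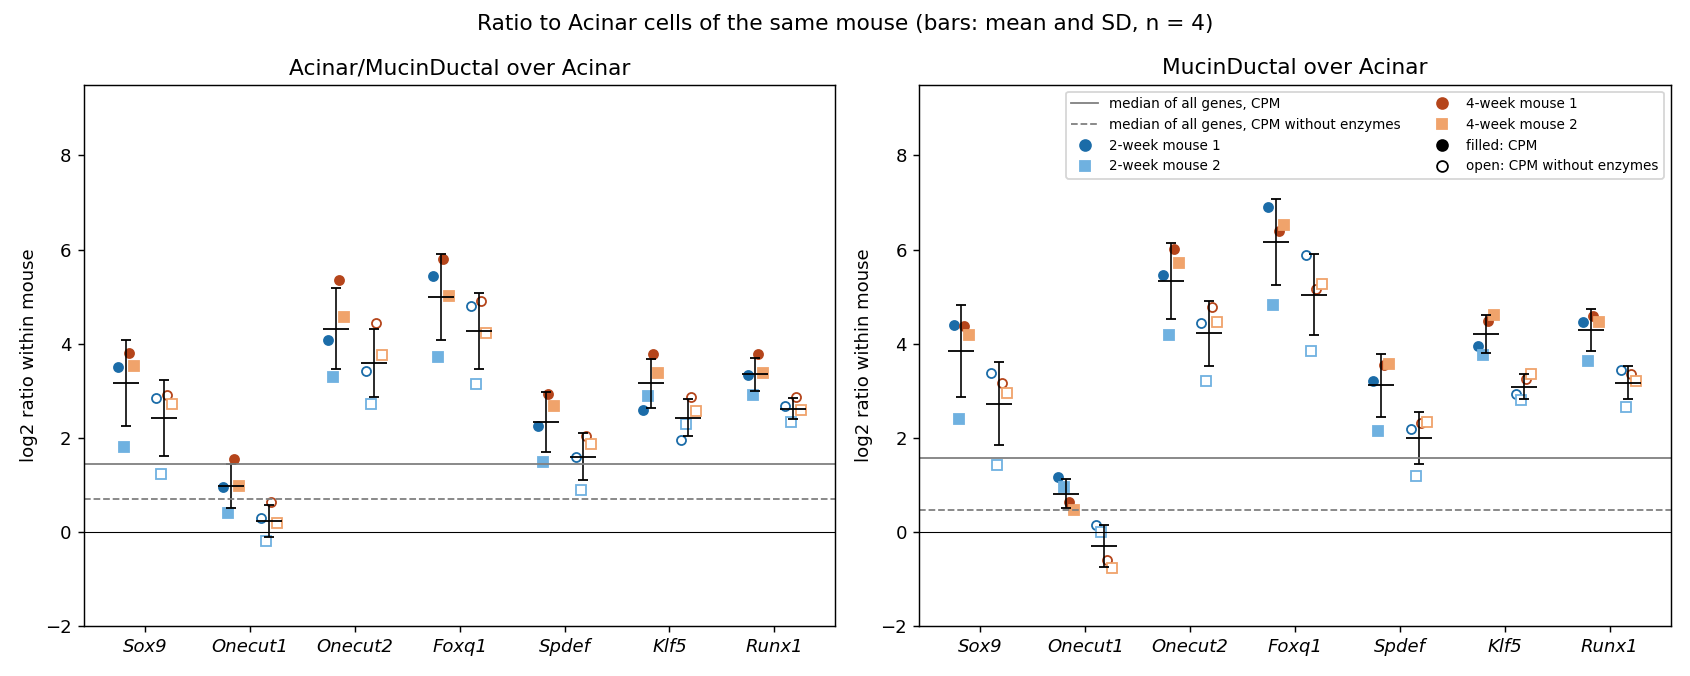
Log2 ratio of each factor in Acinar/MucinDuctal (left) and MucinDuctal cells (right) to Acinar cells of the same mouse, in CPM (filled points) and in CPM without enzymes (open points), with the mean and SD of 4 mice in black and the medians of all genes in grey. The 6 factors other than Onecut1 lie above the median of all genes on average on both scales, and 2-week mouse 2 gives the lowest ratio for 5 of them in Acinar/MucinDuctal cells.

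The 6 factors were higher again in MucinDuctal cells. In MucinDuctal over Acinar cells 6 of 7 factors met the 2-fold rule in every mouse, against 52.3% of genes, and 6 of 7 against 11.8% with enzymes left out. The immediate early and dissociation genes met the rule in 7 of 10 cases (4 with enzymes left out), with a median log2 ratio of 2.60, and their part in this result was not tested. Between MucinDuctal and Acinar/MucinDuctal cells 0 of 7 did, against 0.35% of genes. The log2 ratios of MucinDuctal over Acinar/MucinDuctal cells ranged from -0.16 (Onecut1) and 0.68 (Sox9) to 1.16 (Foxq1), against a median of 0.28 for all genes. With enzymes left out they were smaller, from -0.54 (Onecut1) and 0.30 (Sox9) to 0.78 (Foxq1), against -0.10 for all genes. On a linear scale, Acinar/MucinDuctal cells had covered 59.0% ± 5.88 of the way from the Acinar to the MucinDuctal level for Sox9, 52.0% ± 7.12 for Spdef, 49.9% ± 7.05 for Runx1, 48.7% ± 11.3 for Onecut2, 46.3% ± 10.9 for Klf5 and 45.1% ± 14.3 for Foxq1 (SD, n = 4). The same figure was 60.9% ± 7.02 for the median of the 8066 genes at least 2-fold higher in MucinDuctal cells, 44.6% ± 3.92 for 15 ductal and mucous genes, and 56.5% ± 5.26 for the loss of enzyme RNA. The means of all 6 factors lay below that of the median gene, within its SD for Sox9 only. With enzymes left out of the total, the factors had covered 58.3% ± 17.1 (Foxq1) to 77.8% ± 8.11 (Sox9), the median gene 82.5% ± 7.94 and the ductal and mucous genes 57.2% ± 2.88. All 6 factors then lay above the 56.5% for enzyme RNA, where in CPM only Sox9 did, so no order of the factors and the enzyme loss is given.

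Cells in the Acinar/MucinDuctal type were shallow in 3 mice, with median depths of 3387, 2659 and 3555 UMIs in 2-week mouse 1 and 4-week mice 1 and 2, and 19556 UMIs in 2-week mouse 2. Acinar cells had medians of 24008 to 32664.5 UMIs and MucinDuctal cells of 15110 to 21810. With cells of 1500 to 15000 UMIs only, a choice made after seeing the data, 5 of 7 factors met the 2-fold rule in Acinar/MucinDuctal cells and 6 of 7 in MucinDuctal cells. Spdef again fell short, with a log2 ratio of 1.47 ± 0.74. No doublet caller was run, and whether droplets with an acinar and a mucous cell contribute was not tested. The enzyme-rich part of these cells, defined next, had a median of 43185 UMIs in 2-week mouse 2, above the medians of both types, and of 3161.5 to 6076.5 UMIs in the other mice.

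Within the Acinar/MucinDuctal type the 6 factors were higher where enzyme RNA was lower. The cells with at least 1500 UMIs were ranked in each mouse by enzyme share and cut into 3 equal parts, with median enzyme shares of 6.42% to 11.4% in the poorest and 35.1% to 40.8% in the richest part. In CPM without enzymes, 6 of 7 factors were higher in the enzyme-poor than the enzyme-rich part in 4 of 4 mice, against 18.8% of all genes. Klf5 had 174, 405, 282 and 257 CPM without enzymes in the enzyme-poor part and 71.6, 204, 114 and 139 in the enzyme-rich part. Sox9 had 698, 520.5, 672 and 661 CPM without enzymes in the enzyme-poor part and 320.3, 364, 299 and 386 in the enzyme-rich part. The ranges of the poor and rich parts did not overlap for Sox9. Foxq1 had 104, 152, 196 and 108 CPM without enzymes in the enzyme-poor part and 35.2, 87.2, 60.2 and 42.8 in the enzyme-rich part, and Onecut1 was higher in the poor part in 2 mice and lower in the other 2.

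**Figure D3:**
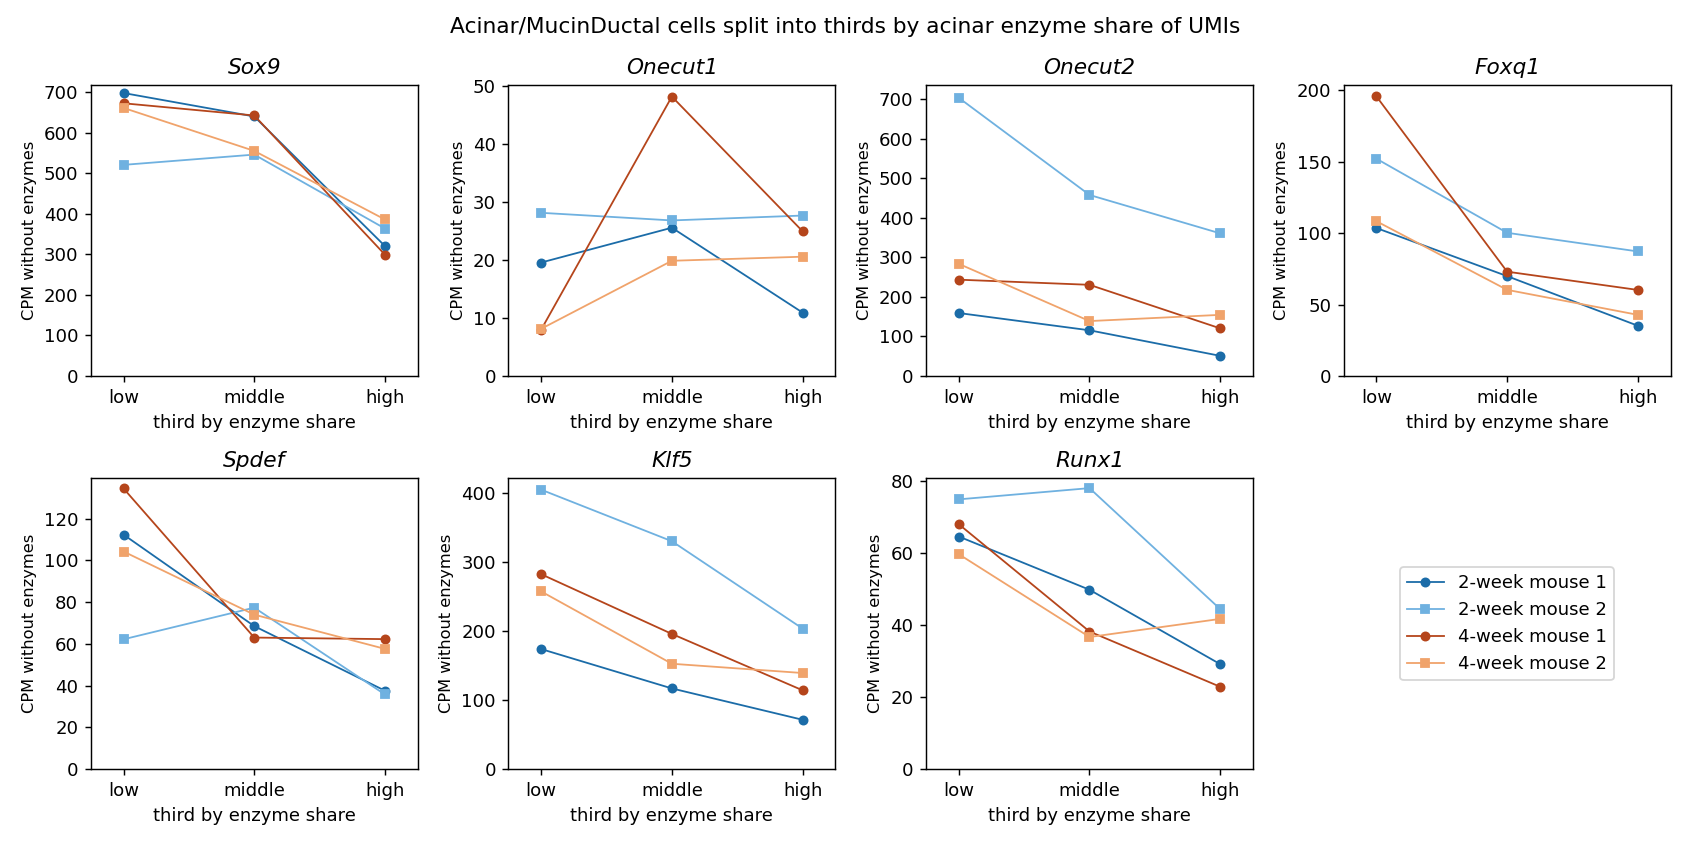
CPM without enzymes of each factor (y axis, from 0) in the 3 parts of Acinar/MucinDuctal cells ranked by enzyme share (x axis), with 1 line for each mouse. All factors but Onecut1 end lower in the enzyme-rich part than they start in the enzyme-poor part in every mouse, though not always stepwise.

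The authors' clusters divided the same types. In Acinar/MucinDuctal cells 6 of 7 factors were higher in cluster 4 than in cluster 3 in 4 of 4 mice, against 42.4% of genes. Enzyme RNA lowers the CPM in cluster 3, where Sox9 averaged 252 CPM, and 400 with enzymes left out. The count was not repeated with enzymes left out. Spdef had 20.9 and 22.1 CPM at 2 weeks and 30.6 and 33.2 CPM at 4 weeks in cluster 3 and 102 and 62.6 CPM at 2 weeks and 108 and 88.3 CPM at 4 weeks in cluster 4. Cluster 3 holds 133 to 505 cells a mouse and cluster 4 holds 117 to 485. The MucinDuctal type split the factors into groups, with Onecut1, Onecut2, Foxq1 and Klf5 higher in cluster 1 (4 of 7, against 32.9% of genes) and Sox9 and Spdef higher in cluster 2 (2 of 7, against 12.8%) in every mouse. Spdef had 47.9 and 47.2 CPM at 2 weeks and 74.0 and 62.1 CPM at 4 weeks in cluster 1 and 133 and 159 CPM at 2 weeks and 117 and 135 CPM at 4 weeks in cluster 2, without overlap. Onecut2 had 324 and 773 CPM at 2 weeks and 518 and 498 CPM at 4 weeks in cluster 1 and 185 and 329.7 CPM at 2 weeks and 190.4 and 169.9 CPM at 4 weeks in cluster 2, overlapping between mice but not within them. Runx1 gave no common direction, with 62.5 to 81.3 CPM in cluster 1 and 60.8 to 86.7 CPM in cluster 2. Cluster 2 carried more of the gland mucin Muc6 (6135 to 7643 against 859 to 1802 CPM) and the trefoil factor Tff2 (49194 to 63894 against 2967 to 5583 CPM), and cluster 1 more of the duct keratin Krt19 (686 to 1385 against 95.2 to 236 CPM). Abundant Tff2 RNA lowers the CPM of the other genes in cluster 2, which was not corrected for. Cluster 1 held 1138 of the 1388 MucinDuctal cells of 2-week mouse 2 and 113 of 371, 228 of 961 and 551 of 1263 in 2-week mouse 1 and 4-week mice 1 and 2, so a MucinDuctal mean mixes the clusters differently in each mouse.

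**Figure D4:**
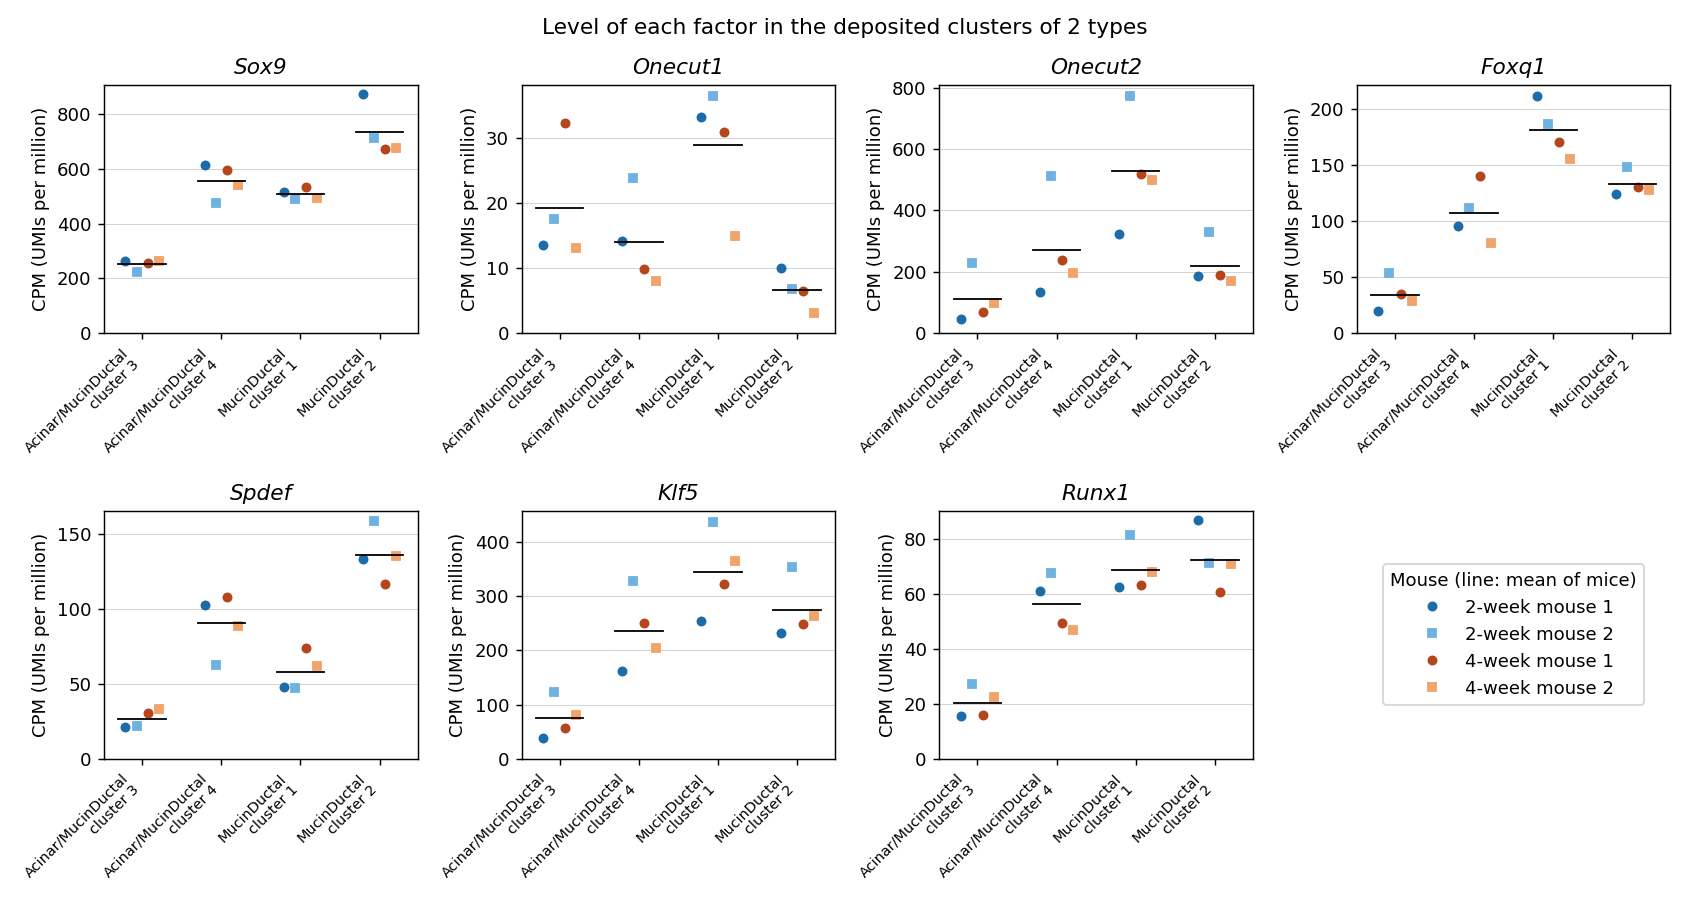
CPM of each factor (y axis, from 0) in the larger deposited clusters of the Acinar/MucinDuctal and MucinDuctal types (x axis), with 1 point for each mouse and a line at the mean of 4 mice. Sox9 and Spdef are higher in MucinDuctal cluster 2 and Onecut1, Onecut2, Foxq1 and Klf5 in cluster 1.

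Outside the metaplastic types the factors parted further. In Tuft cells Sox9 had 785 ± 41.0 CPM (SD, n = 4), its highest mean of any type, though the mice overlapped those of Ductal-like and MucinDuctal cells. Runx1 was highest in Tuft cells, at 121 ± 8.83 CPM (SD, n = 4), above every mouse of any other type. Its lowest Tuft mouse had 111 CPM, and macrophage-like cells without a deposited type reached 112 CPM. In Tuft over MucinDuctal cells its log2 ratio was 0.74, and the leukocyte genes had a median of 1.12, against 0.23 for all genes. Their part in the Runx1 level was not tested. Foxq1 had 8.98 ± 1.53 CPM (SD, n = 4) in Tuft cells, and Onecut1 0 to 5.11 CPM. It was not detected in 83 Tuft cells of 2-week mouse 1, which allows a share of up to 3.61%. In Tuft over MucinDuctal cells, 2 of 7 factors (Onecut1 and Foxq1) were at least 2-fold lower in every mouse, against 7.74% of genes, and 0 were at least 2-fold higher, against 12.2%. In EEC 6 of 7 were lower, against 6.64% of genes, the exception being Onecut2, whose EEC level of 363 ± 105 CPM (SD, n = 4) overlapped that of MucinDuctal cells (367 ± 218 CPM (SD, n = 4)).

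Among EEC subtypes, Sox9 had 213 to 354 CPM in Delta cells (somatostatin) and 22.9 to 70.9 CPM in ECL cells (Tac1), without overlap. Onecut2 had 295 to 663 CPM in Epsilon cells (ghrelin) and 96.3 to 231 CPM in Ppy+ cells, which also did not overlap. Spdef had 7.34 to 38.4 CPM in Neurog3+ progenitors, overlapping Delta cells at 5.75 to 7.46 CPM. It reached 7.30 CPM in ECL, 6.98 CPM in Epsilon and 6.79 CPM in Ppy+ cells. Tuft/EEC.Progenitor cells, read in the 3 mice with at least 20 of them, overlapped MucinDuctal cells for Onecut2 (273 to 595 CPM), Klf5 (158 to 322 CPM) and Spdef (61.4 to 104 CPM). Foxq1 (25.2 to 97.2 CPM) was lower there than in any mouse's MucinDuctal cells. In Acinar.Prolif cells 0 of 7 factors were at least 2-fold higher than in Acinar cells in every mouse, against 7.5% of genes.

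Free RNA can put UMIs of a gene into cells that do not make it, and cells without a deposited type that carried T, B or endothelial markers gave a measure of it. These cells were picked to hold no UMI of the epithelial gene Epcam, so the measure may be too low for epithelial genes. The share of T-like cells with a Sox9 UMI differed between mice, from 0.943% in 2-week mouse 1 to 9.30% in 2-week mouse 2, and was 2.19% and 3.36% at 4 weeks. In 2-week mouse 1 it was 1 of 106 T-like cells (0.943%, exact 95% interval 0.0239% to 5.14%) and 4 of 115 B-like cells (3.48%, interval 0.956% to 8.67%), at median depths of 3897 and 3333 UMIs. It was 3 of 41 endothelial-like cells (7.32%, interval 1.54% to 19.9%) and 40 of 380 macrophage-like cells (10.5%, interval 7.63% to 14.1%) there, at medians of 4461 and 6811.5 UMIs. Acinar/MucinDuctal cells of the same mouse, at a median of 3387 UMIs, had a share of 63.5% (191 of 301 cells, interval 57.7% to 68.9%). The highest Sox9 level among the 4 kinds of background cells was 16.0 and 36.7 CPM at 2 weeks and 13.2 and 19.3 CPM at 4 weeks, below the Acinar level of the same mouse in each case (36.9 and 101 CPM at 2 weeks and 31.0 and 32.8 CPM at 4 weeks). For Foxq1 that highest level was 1.11 and 10.5 CPM at 2 weeks and 1.65 and 2.00 CPM at 4 weeks, and Acinar cells exceeded it in 2-week mouse 1 only, at 1.22 CPM. Onecut2 in Acinar cells had 3.87 to 5.92 CPM in 3 mice and 38.2 CPM in 2-week mouse 2, where background cells had 0 to 8.74 CPM and 6.67 to 26.2 CPM, so its ratios to Acinar cells in those 3 mice also rest on a level within the background. Spdef was found in 0 of 134 endothelial-like cells, which allows a share of up to 2.24%. Klf5 in Acinar cells fell to 11.8 CPM, near its highest background levels at 4 weeks of 9.47 and 11.9 CPM. For Sox9, Onecut1, Onecut2, Foxq1, Spdef and Klf5 the lowest Acinar/MucinDuctal mouse lay above the highest of the T-like, B-like, endothelial-like and macrophage-like values. Runx1 in Acinar/MucinDuctal cells (33.1 to 48.2 CPM) overlapped that of T-like cells (42.2 to 80.1 CPM).

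The other regulators of ductal and metaplastic cells, a list of 30 genes chosen by name with earlier results of these data known, were higher in part. In Acinar/MucinDuctal over Acinar cells 18 of the 29 with at least 1 CPM were at least 2-fold higher in every mouse and 0 lower, against 33.1% of all genes higher, and 10 were higher with enzymes left out, against 11.2%. The median log2 ratio of the list was 2.20, against 1.43 for all genes. Creb3l4, a membrane-bound CREB-family factor, had 2.45 ± 2.26 CPM in Acinar, 42.0 ± 3.62 CPM in Acinar/MucinDuctal and 76.8 ± 7.82 CPM in MucinDuctal cells (SD, n = 4). Id1, an inhibitor of basic helix-loop-helix factors, had 4.86 ± 4.71, 41.4 ± 13.5 and 94.2 ± 33.5 CPM, and Onecut3, the remaining ONECUT gene, 0.843 ± 1.44, 8.55 ± 5.27 and 15.5 ± 10.7 CPM. Myc had no such pattern, with 17.3 ± 3.95 CPM in Acinar and 11.5 ± 3.82 CPM in MucinDuctal cells. Of 5 acinar factors 0 were at least 2-fold higher in MucinDuctal cells in every mouse, against 52.3% of all genes, and 3 were lower, against 1.78% (4, against 3.71%, with enzymes left out). Among the lower ones was Ptf1a, the driver of the enzyme programme, at 57.6 ± 12.8 CPM in Acinar, 26.8 ± 14.6 CPM in Acinar/MucinDuctal and 1.72 ± 0.951 CPM in MucinDuctal cells.

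Across 31 sums of mouse by type, with at least 20 cells each, the most similar gene of 8049 by Pearson r of log2(CPM + 1) was Kcnn4 for Sox9 (0.97), Lpp for Onecut2 (0.97), Kcne3 for Foxq1 (0.98), Colca2 for Spdef (0.96), Tmprss2 for Klf5 (0.97), Mgst2 for Runx1 (0.97) and Pik3ap1 for Onecut1 (0.92). Creb3l4 and Elf3 were next to Tmprss2 for Klf5. Between the factors themselves, Sox9 and Klf5 correlated at 0.92 and Spdef and Runx1 at 0.91, while Onecut1 did so with none above 0.56 (Foxq1). The sums share mice and depth, so these values are descriptions.

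Between 2 and 4 weeks of caerulein no factor passed the test in any type. Counts were summed for each mouse and type and fitted with edgeR's quasi-likelihood test over all genes of the type, with Benjamini-Hochberg adjustment, in the 7 types with at least 20 cells in each mouse. Of 46 pairs of factor and type, 0 were called by edgeR at an adjusted p of 0.05 and 0 by DESeq2, and 4 had an unadjusted p below 0.05. Of all genes 0% were called in Acinar, Acinar/MucinDuctal, MucinDuctal, Ductal-like, Tuft and EEC, and 1 gene (0.00995%) in Acinar.Prolif, while 2.45% to 6.74% of genes had an unadjusted p below 0.05 and DESeq2 called 0 to 40 genes a type.

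**Figure D5:**
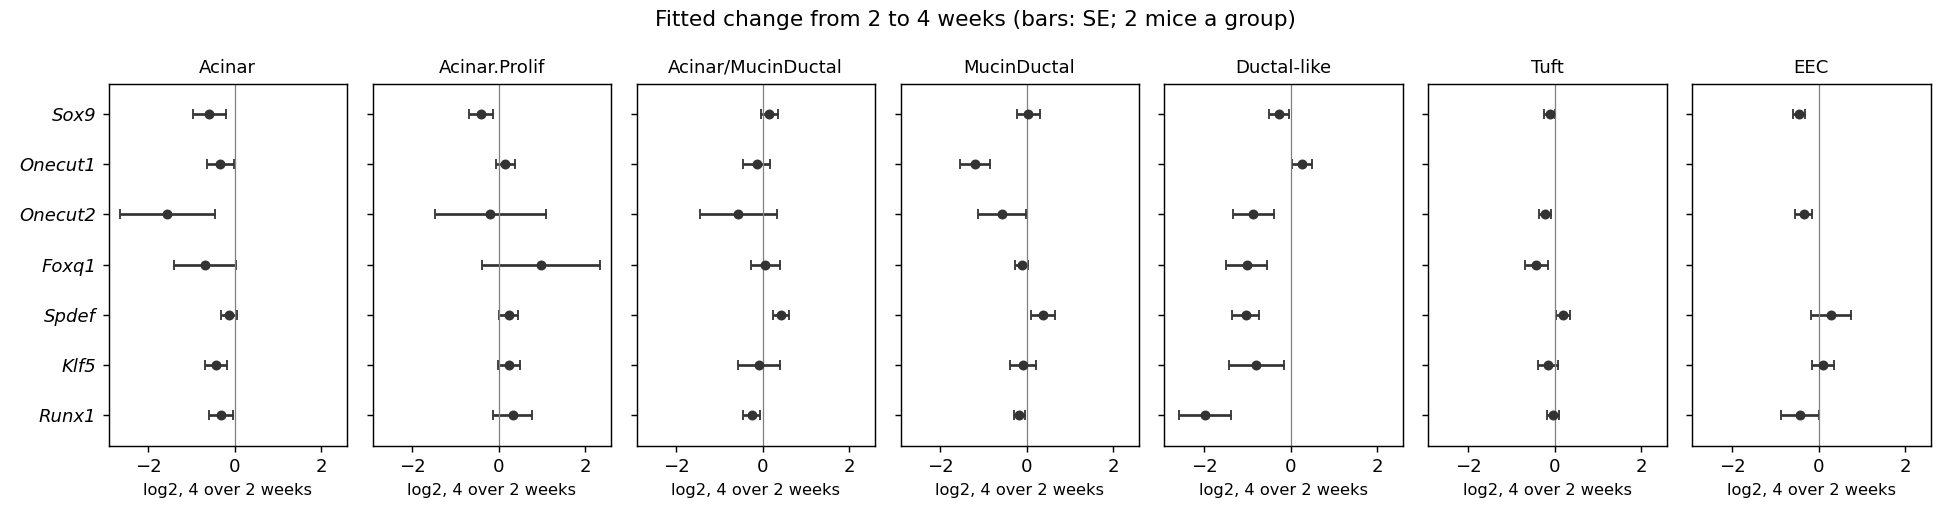
Fitted log2 change of each factor from 2 to 4 weeks (x axis; 2 mice a group) in 7 types, with bars for the SE; a factor that did not pass the count filter of a type has no point. No change passed the test, and the widest bars belong to Foxq1 and Onecut2 in Acinar.Prolif cells and to Onecut2 in Acinar cells.

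In each type the factor with the smallest p was named. In MucinDuctal cells this was Onecut1, with 16.1 and 30.9 CPM at 2 weeks and 10.9 and 8.06 CPM at 4 weeks and a fitted log2 change of -1.20 (SE 0.35), with an adjusted p of 0.824 by edgeR. In Ductal-like cells it was Spdef (50.2 and 50.0 CPM at 2 weeks and 17.5 and 30.5 CPM at 4 weeks), with a change of -1.04 (SE 0.32) and an adjusted p of 0.900 by edgeR. Runx1 there was at 34.2 and 48.8 CPM at 2 weeks and 2.18 and 18.3 CPM at 4 weeks and had a fitted change of -1.99 (SE 0.60), with an adjusted p of 0.900 by edgeR. The 23 Ductal-like cells of 4-week mouse 1 had a median of 8889 UMIs, against 21039 to 38505.5 in the other mice. Its 17.5 and 2.18 CPM therefore rest on few molecules. In Acinar/MucinDuctal cells Spdef had a fitted change of 0.42 (SE 0.18), with an adjusted p of 0.999, in EEC Sox9 had a change of -0.46 (SE 0.14), with an adjusted p of 0.986, and in Acinar cells Klf5 had a change of -0.43 (SE 0.26), with an adjusted p of 0.998, all by edgeR. In Acinar.Prolif cells Sox9 had a fitted change of -0.41 (SE 0.27), with an adjusted p of 1.000, and in Tuft cells Onecut2 had a change of -0.23 (SE 0.14), with an adjusted p of 0.862.

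The outcome changed when 2-week mouse 1 was left out. Without 2-week mouse 1, when 2-week mouse 2 alone stood for its group and was assumed to vary like the 4-week mice, 10 of 48 pairs were called by edgeR, against 1.73% of all pairs of gene and type, among them Onecut2 in Acinar cells at -2.30 (SE 0.25, adjusted p 0.0105) and in Acinar/MucinDuctal cells at -1.28 (SE 0.20, adjusted p 0.0121). Onecut1 in MucinDuctal cells had -1.55 (SE 0.22, adjusted p 0.0378). Without 2-week mouse 2, 2 of 47 pairs were called, against 0.97% of all pairs, Onecut2 and Foxq1 in Acinar.Prolif cells, with Onecut2 at 1.38 (SE 0.29, adjusted p 0.000609) by edgeR. In Acinar cells 5 of 7 factors had lower CPM in both 4-week than in both 2-week mice, and so had 61.8% of genes. In MucinDuctal cells 3 of 7 factors did, against 30.2% of genes, in Acinar/MucinDuctal cells 1 of 7 (22.6%), in Tuft cells 3 of 6 (17.3%), in Ductal-like cells 4 of 7 (18.7%), in EEC 1 of 5 (23.6%) and in Acinar.Prolif 0 of 7 (27.3%). The enzyme share of Acinar cells was higher at 4 weeks (58.7% and 58.8%) than at 2 weeks (52.4% and 49.6%). Its part in the Acinar count was not tested. Of the list of 30 regulators, 23 to 29 were tested in a type, and edgeR called 0 in 6 types and 1 in Acinar.Prolif, Atf3, a stress-induced factor that is also one of the 10 immediate early and dissociation genes, at -2.39 (SE 0.25, adjusted p 0.0144). It was the 1 gene called in that type.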

How the data were processed

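Single-cell RNA libraries (10x 3' v3.1) of EYFP-sorted pancreas cells from 4 mice were used, 2 at each time. The authors deposited whole-number UMI counts for 32288 features in 21140 cells with their type, subtype and cluster labels; Cell Ranger 4.0.0, Seurat 3.2.3 and build mm10 are named per the submitters' processing notes. The strand setting and the treatment of doublets are not given in the sources used here, and no doublet caller was run here. The 7 factors and all lists were chosen with earlier results of these data known.

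Counts were summed by mouse and deposited type where a mouse held at least 20 cells; ratios used sums with 0.5 counts added. Cells without a deposited type were called T-like, B-like, endothelial-like or macrophage-like when they held at least 3 of that list's markers. They also had to hold at most 1 marker of each other list and no Epcam UMI. Time was tested with edgeR 4.0.16 (TMM, filterByExpr, robust quasi-likelihood fit, Benjamini-Hochberg adjustment over all genes of a type; R 4.3.3), with DESeq2 1.42.0 as an alternative; Python 3.11.15, pandas 2.3.3, numpy 2.4.6 and scipy 1.17.1 did the rest. On simulated counts the fit recovered 173 of 200 genes changed 4-fold in Acinar, 172 in Acinar/MucinDuctal and 180 in MucinDuctal cells, with 6, 5 and 7 false calls, in 12343, 11620 and 13463 genes. All genes of a type were simulated with the same spread between mice (dispersions of 0.0682, 0.0524 and 0.0609). Recovery of genes with a larger spread was therefore not tested. Named in each type were all 7 factors, for time the factor with the smallest p, the genes of highest r to each factor, and genes of the lists. Runx1 in Ductal-like cells, and the factors called without a library, were singled out after their values were seen. Intervals and limits of shares cover counting error only. Depth differed between types, so shares were also thinned to 1500 UMIs.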

Additional observations from a re-analysis of the deposited data

Results flagged for a closer look

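Of 14 groups of 4 mice (7 factors in each of the 2 ratios to Acinar cells), 3 held 1 mouse far from the others. Chance flags about 1 in 20 independent groups, but these are not independent, as the 2 ratios of a factor share its Acinar level. In all 3 flagged groups the far mouse was 2-week mouse 2 and its ratio was the lowest. The log2 ratio of Sox9 in Acinar/MucinDuctal over Acinar cells was 1.81 there, with a gap to the nearest mouse of 0.847 of the whole range, above Dixon's 95% critical value for 4 samples. For Sox9 in MucinDuctal over Acinar cells it was 2.39 (0.893 of the range), and for Runx1 in MucinDuctal over Acinar cells 3.63 (0.859 of the range). The denominators of these ratios, Sox9 and Runx1 in Acinar cells, were highest in the same mouse, as were those of the other 5 factors. Of all genes 66.9% were highest there in Acinar cells, and 56.4% with enzymes left out, so this holds for most genes.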

How the results depend on the processing

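The counts of factors at least 2-fold higher than in Acinar cells stayed within 1.5 times the reported count in all 20 recounts. That band is wide for so few factors. The recount with TMM factors in Acinar/MucinDuctal cells, where Sox9 and Spdef dropped out, still lies within it. Of 140 alternative log2 ratios to Acinar cells, 106 moved by less than 1 SD, 29 moved by more and 5 changed sign, all of Onecut1. In Acinar/MucinDuctal cells its ratio was -0.31 with TMM factors and -0.20 with cells of 1500 to 15000 UMIs, a window chosen after seeing the data; in MucinDuctal cells it was -0.31 with enzymes left out, -0.74 with TMM factors and -0.35 in that window. Without 2-week mouse 2 the Sox9 ratio was 3.61 in Acinar/MucinDuctal and 4.32 in MucinDuctal cells. The causes were not tested.

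For time, factors called without the low-count filter numbered 1 in Acinar and 3 in Ductal-like cells. Leaving out 1 mouse gave 0 to 1 in Acinar, Acinar/MucinDuctal and MucinDuctal cells, 0 to 2 in Acinar.Prolif and EEC, 0 to 4 in Ductal-like and 0 in Tuft cells. Over all genes, DESeq2 called 15 in Acinar, 2 in Acinar.Prolif, 23 in Acinar/MucinDuctal, 14 in EEC, 40 in MucinDuctal and 31 in Tuft cells. No low-count filter gave 286, 51, 128, 74, 6 and 266 in the same order and 81 in Ductal-like cells, and the fit that was not robust gave 0 in Acinar.Prolif. Leaving out 1 mouse gave 13 to 129 genes in Acinar, 5 to 143 in Acinar.Prolif, 0 to 122 in Acinar/MucinDuctal, 0 to 230 in Ductal-like, 0 to 366 in EEC, 0 to 191 in MucinDuctal and 5 to 273 in Tuft cells. No paired analysis was possible because each mouse belongs to 1 time and its number was given in accession order. With 2 mice a group, and 22 to 56 Ductal-like cells a mouse, differences may have been missed, also large ones. Recovery of small differences was not tested.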
